A study of Mus musculus with 21 samples.

Results

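H3K4me1, a histone mark of enhancers and of the flanks of promoters, was profiled by CUT&RUN in mouse embryonic stem cells whose MLL3 and MLL4 proteins both carry CD alleles (MLL3CD_MLL4CD, called here the catalytic-dead line). The transition of this line was the level in formative cells, taken 63 h after withdrawal of LIF and 2i, minus the level in naive cells, per region. Both states had 2 libraries, so 4 of the 21 samples of the series belong to the line. Regions were used where the authors' Conc, the log2 mean of normalized reads over wild-type libraries, was at least 5, which kept 111035 of 186824 regions with levels. Conc comes from wild-type libraries only, so no value of the catalytic-dead line chose the regions.

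Beside it stood a double knockout of both genes (MLL3KO_MLL4KO), an MLL3-null line with floxed MLL4 (MLL3KO_MLL4fl, the floxed line) and wild type (WT), each in the same 2 states with 2 libraries per group. The catalytic-dead line and wild type carry the cell line label R1, the other lines none, so genotype and line of origin cannot be told apart between these pairs. Which substitution the CD alleles carry, and how many clones were used, is not given in the sources used here. H3K4me1 at the Kmt2c and Kmt2d loci does not check the CD alleles. The deposited table holds 1 pooled column per group. No spread between cultures could be computed, no difference below has a test of its own, and no SD or p-value is given. The 4 lines share no library.

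MLL3 and MLL4, the products of Kmt2c and Kmt2d, are SET-domain methyltransferases that place H3K4me1 at enhancers, and they also anchor a complex that holds the demethylase UTX and can act apart from methylation. Leaving naive pluripotency closes enhancers bound by factors such as ESRRB, TFCP2L1 and KLF proteins and opens those of the early post-implantation epiblast, of which Fgf5 is the standard marker. A line that keeps the proteins and lacks their activity shows which parts of this exchange of H3K4me1 are seen without it.

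Sequences of 6 regions show the kinds of site at which the line still differed between states. Each is the central 300 bases on the plus strand of the GRCm38 (mm10) genome, with CpG in capitals. Of the named gains and losses below that passed the authors' FDR in wild type the same way, the one with the most reads in each direction is shown. They are an intron at Pantr1, higher in formative cells (chr1:42691962-42692261), and an intron at Gm13570, lower in formative cells (chr2:60047498-60047797). The strongest region of the formative marker locus Fgf5 (chr5:98290615-98290914, intergenic) and that of the naive marker locus Zfp42 (chr8:43310665-43310964, intergenic) follow. The last pair are regions within 1 kb of the start sites of Crmp1 (chr5:37240935-37241234) and Vstm4 (chr14:32857123-32857422). This pair was chosen after the values were seen, as large gains (1.09 each) among regions with at least 2 CpG per 100 bp and 64 reads. They need not be the largest gains of this kind.
Pantr1: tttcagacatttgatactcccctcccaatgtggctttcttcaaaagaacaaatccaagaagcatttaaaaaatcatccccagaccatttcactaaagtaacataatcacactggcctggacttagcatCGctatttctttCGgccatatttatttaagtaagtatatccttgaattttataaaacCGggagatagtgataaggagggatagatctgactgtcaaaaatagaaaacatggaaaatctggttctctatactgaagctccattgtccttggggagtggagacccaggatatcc
Fgf5: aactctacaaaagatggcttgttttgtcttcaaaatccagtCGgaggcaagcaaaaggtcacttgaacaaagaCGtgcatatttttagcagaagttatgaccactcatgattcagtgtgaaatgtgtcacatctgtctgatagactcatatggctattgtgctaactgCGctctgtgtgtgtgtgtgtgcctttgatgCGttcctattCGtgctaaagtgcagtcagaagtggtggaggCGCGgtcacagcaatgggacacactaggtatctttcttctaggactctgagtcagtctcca
Gm13570: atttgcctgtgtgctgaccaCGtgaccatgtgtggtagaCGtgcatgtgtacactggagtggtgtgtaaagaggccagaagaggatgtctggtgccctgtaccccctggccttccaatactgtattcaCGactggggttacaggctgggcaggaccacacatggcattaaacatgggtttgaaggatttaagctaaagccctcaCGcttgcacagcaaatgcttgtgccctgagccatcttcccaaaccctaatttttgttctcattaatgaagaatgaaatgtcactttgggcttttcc
Zfp42: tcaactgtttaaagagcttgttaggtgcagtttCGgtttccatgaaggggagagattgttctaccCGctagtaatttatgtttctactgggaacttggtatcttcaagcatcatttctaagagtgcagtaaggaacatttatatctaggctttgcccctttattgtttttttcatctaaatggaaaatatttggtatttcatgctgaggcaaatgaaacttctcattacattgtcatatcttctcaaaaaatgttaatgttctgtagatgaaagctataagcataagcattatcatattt
Crmp1: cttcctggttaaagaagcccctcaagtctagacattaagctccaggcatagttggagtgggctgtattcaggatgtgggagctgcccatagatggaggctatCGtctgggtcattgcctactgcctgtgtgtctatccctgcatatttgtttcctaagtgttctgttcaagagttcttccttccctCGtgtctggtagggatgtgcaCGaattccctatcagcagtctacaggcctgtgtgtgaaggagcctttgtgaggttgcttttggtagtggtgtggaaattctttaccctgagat
Vstm4: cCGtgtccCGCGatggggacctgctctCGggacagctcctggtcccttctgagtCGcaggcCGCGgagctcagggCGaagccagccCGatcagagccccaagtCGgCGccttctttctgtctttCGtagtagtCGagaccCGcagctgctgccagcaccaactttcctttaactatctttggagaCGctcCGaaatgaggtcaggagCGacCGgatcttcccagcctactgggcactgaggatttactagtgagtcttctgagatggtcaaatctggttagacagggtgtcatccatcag

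The sequences differ in CpG content. The central windows at Pantr1, Fgf5, Gm13570 and Zfp42 hold 3, 7, 4 and 2 CpG, and those at Crmp1 and Vstm4 hold 3 and 18. The Crmp1 window lies off the CpG-dense part of its region, which has 4.17 CpG per 100 bp over its whole length, against 0.64 in the Pantr1 region. The Fgf5 region, 36.6 kb from the start site, had 45.9 normalized reads in formative and 21.9 in naive catalytic-dead cells (1.03). The Zfp42 region, at −3.81 kb from the start site, had 8.94 reads in formative and 29.6 in naive cells (−1.69). In wild type these 2 regions differed by 2.08 and −1.66, and in the double knockout by 0.23 and 0.25.

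Most regions differed little between states in the catalytic-dead line. All differences are log2 values, formative minus naive, on the deposited level. The median was −0.03 with an SD across regions of 0.41, against 0.73 in wild type, 0.71 in the floxed line and 0.33 in the double knockout. The middle 90% of regions lay between −0.73 and 0.60 in the catalytic-dead line, and between −1.21 and 1.18 in wild type. Of the 111035 regions, 85.6% stayed within 1.5-fold, against 61.8% in wild type. At least 2-fold higher in formative cells were 580 regions (0.522%), and at least 2-fold lower were 1529 (1.38%). The double knockout had 444 higher (0.4%) and 442 lower (0.398%), the floxed line 6819 (6.14%) and 10921 (9.84%), and wild type 7900 (7.11%) and 9814 (8.84%). The transition of the catalytic-dead line thus lay between those of the double knockout and wild type in size.

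The balance of the catalytic-dead line was toward losses, since 72.5% of the regions past 2-fold were lower. This split depended on scaling: with the groups centred on their medians, 56.5% were lower (845 higher, 1098 lower), and after quantile scaling 58.5% (745 and 1050). The median level of formative cells lay −0.07 from that of naive cells in this line, so class medians below that lie between −0.07 and 0 turn positive when centred. Median normalized reads per region were 49.8 in formative and 52.8 in naive catalytic-dead cells, against 62.6 and 64.7 in wild type. Regions with few reads passed 2-fold most often. Of regions with a mean under 16 reads in the catalytic-dead line, 3.58% were higher and 2.78% lower, and of those with at least 128 reads, 0.05% and 0.36%. Of the 580 higher regions, 371 had fewer than 32 reads, as had 634 (41.5%) of the 1529 lower ones, against 24.7% of all regions. Just above the Conc limit of 5, 1.21% of regions were higher and 2.83% lower, and just below it 1.35% and 2.69%.

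**Figure D1:**
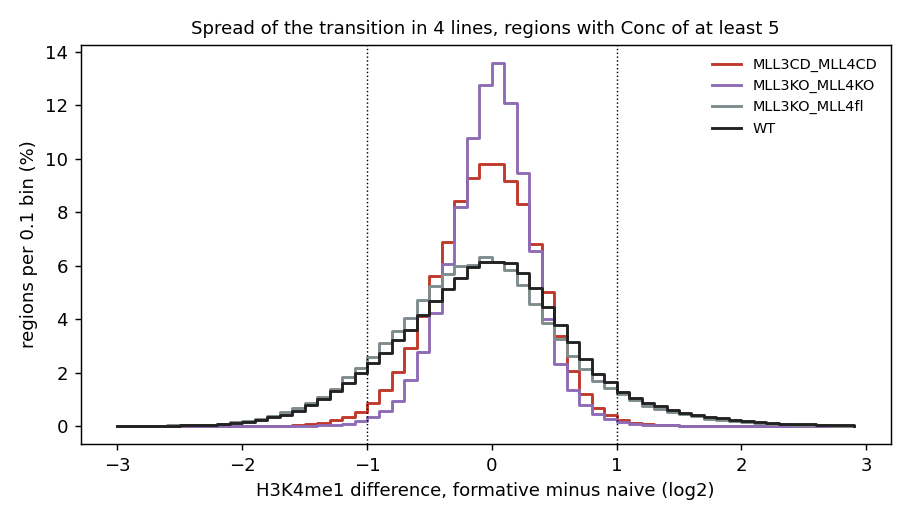
Distribution of the formative minus naive H3K4me1 difference (log2, x axis) over 111035 regions, as percent of regions per 0.1 bin (y axis), with 1 line per genotype and dotted lines at 2-fold. The MLL3CD_MLL4CD curve (SD 0.41) is wider than that of MLL3KO_MLL4KO (SD 0.33) and narrower than those of MLL3KO_MLL4fl and WT (SD 0.71 and 0.73).

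The first question was whether what is left follows the normal transition. Across regions, the difference in the catalytic-dead line correlated with that in wild type at Pearson r = 0.46 and Spearman rho = 0.47, with the floxed line at r = 0.43 and with the double knockout at r = 0.36. At the 16792 regions with at least 128 reads, r with wild type was 0.64. Regions are not independent and share width and base composition, so these values describe the table only. Of the 580 regions 2-fold higher in the catalytic-dead line, 318 (54.8%) were also 2-fold higher in wild type, which is 4.03% of the 7900 there, and 9 were 2-fold lower. Of the 1529 lower regions, 579 (37.9%) were lower in wild type, or 5.90% of the 9814 there, and 14 were higher. With the double knockout, the catalytic-dead line shared 37 higher regions (6.38% of its own, 8.33% of the 444) and 63 lower ones (4.12% of its own, 14.3% of the 442).

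Wild-type regions were classed by the authors' deposited comparison of formative with naive wild type. At an FDR under 0.05, 12046 regions had gained (10.8%) and 14975 had lost H3K4me1 (13.5%), while 55752 (50.2%) were stable (FDR above 0.2 and a difference smaller than 0.5). In wild-type-gained regions the median of the catalytic-dead line was 0.27, against 0.15 in the double knockout, 0.85 in the floxed line and 1.13 in wild type, whose libraries defined the class. In wild-type-lost regions it was −0.33, against −0.14 in the double knockout, −0.98 in the floxed line and −1.09 in wild type. In stable regions it was 0.01. The sign followed wild type at 75.7% of gained and 84.5% of lost regions, against 68.3% and 69.6% in the double knockout.

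Few wild-type changes were kept at 2-fold, a size that wild type itself reached at 62.1% of gained and 60.2% of lost regions. Of the gained regions, 325 (2.70%) were also at least 2-fold higher in the catalytic-dead line, 2719 (22.6%) were higher by 0.5 to 1, 8678 (72.0%) lay within 0.5 of 0, and 324 (2.69%) were lower by 0.5 or more. Of the lost regions, 647 (4.32%) were at least 2-fold lower, 3955 (26.4%) lower by 0.5 to 1, 10250 (68.4%) within 0.5, and 123 (0.82%) higher. By the same sizes the double knockout kept 205 gains (1.70%) and 148 losses (0.99%), and the floxed line 4857 (40.3%) and 7159 (47.8%). After each group was centred on its own median, the catalytic-dead line kept 3.72% of gains and 3.17% of losses, which turns the order of its 2 shares. Among well covered regions, with at least 64 reads, the catalytic-dead line kept 42 of 3784 gains (1.11%) and 171 of 6087 losses (2.81%), and the double knockout 9 (0.24%) and 22 (0.36%).

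**Figure D2:**
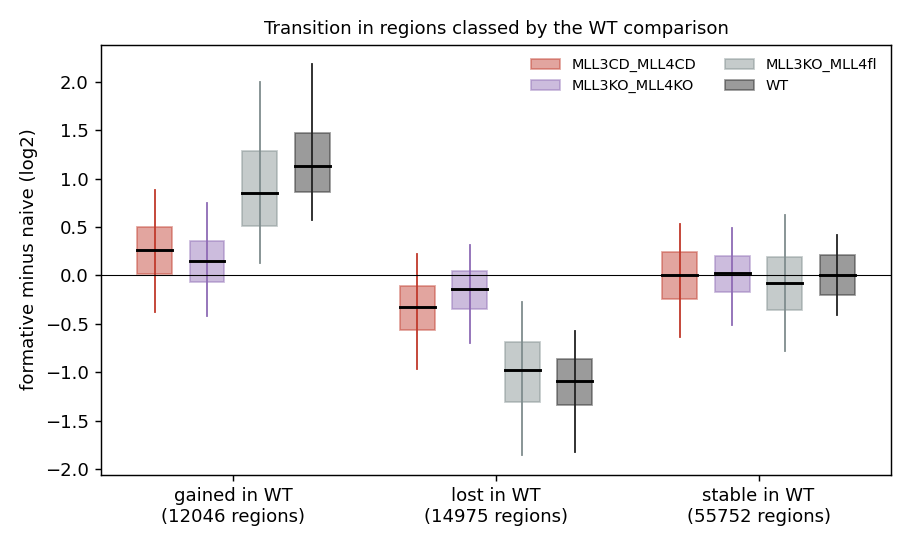
Formative minus naive H3K4me1 difference (log2, y axis) in regions gained, lost or stable in wild type, for 4 genotypes. Bars show the middle 50% of regions, thick lines the median and thin lines the middle 90%. MLL3CD_MLL4CD medians (0.27 in gained and −0.33 in lost regions) lie farther from 0 than those of MLL3KO_MLL4KO (0.15 and −0.14) and nearer to it than those of WT.

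The shortfall sat in the state in which each class is normally high. Set against the floxed line, which was used neither for the classes nor for the transition of the catalytic-dead line, wild-type-gained regions stood at −0.97 in formative and −0.21 in naive catalytic-dead cells. Median reads there were 42.8 in formative and 37.0 in naive catalytic-dead cells, against 88.7 and 45.9 in the floxed line. Wild-type-lost regions stood at 0.09 in formative and −0.58 in naive cells, with 46.2 and 60.4 reads against 43.3 and 93.6. Stable regions stood at −0.14 and −0.18. The double knockout gave −1.01 and −0.18 in gained and 0.21 and −0.64 in lost regions. In bulk cultures, a site marked in fewer cells and a site with less mark in every cell cannot be told apart.

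Of the 5 classes of distance to a start site, the nearest had the highest median in the catalytic-dead line. The 8206 regions within 1 kb had a median of 0.24, against 0.12 in the double knockout and 0.17 in wild type. At 1 to 10 kb the median was 0.04, at 10 to 50 kb −0.09, at 50 to 100 kb −0.11 and beyond 100 kb −0.07, where wild type had 0.17. These shifts were broad and small. Within 1 kb, 0.28% of regions were 2-fold higher and 0.35% lower, both below the shares over all regions. Promoter regions with at least 2 CpG per 100 bp had a median of 0.29 and the others 0.13, against 0.20 and 0.11 in wild type. In the double knockout these were 0.14 and 0.07. The class was higher also at the 5624 promoter regions that were stable in wild type (0.22, against 0.10 in wild type and 0.12 in the double knockout). The 50128 stable regions farther away had −0.02. Centred on group medians, regions within 1 kb had 0.31 in the catalytic-dead line and 0.19 in wild type.

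CpG density went with the same difference outside promoters to a smaller degree. By quartile of CpG density, medians in the catalytic-dead line were −0.04, −0.10, −0.08 and 0.12 from the poorest to the densest, against 0.05, −0.10, −0.12 and 0.03 in wild type. The double knockout had 0.02, −0.05, −0.03 and 0.09. With regions within 1 kb left out, the densest quartile had 0.04, against 0.06 in the double knockout. The pattern was thus not particular to the catalytic-dead line. By annotation, regions called 5'UTR or promoter by the authors' table had medians of 0.27 and 0.25, exons 0.04, introns −0.07 and intergenic regions −0.02. Of the chromosomes, the 968 regions of X had a median of 0.13 in the catalytic-dead line, with 2.48% 2-fold higher and 1.55% lower, against 0.15 in the double knockout and 0.34 in wild type. Medians of the autosomes lay between −0.08 and 0.02.

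**Figure D3:**
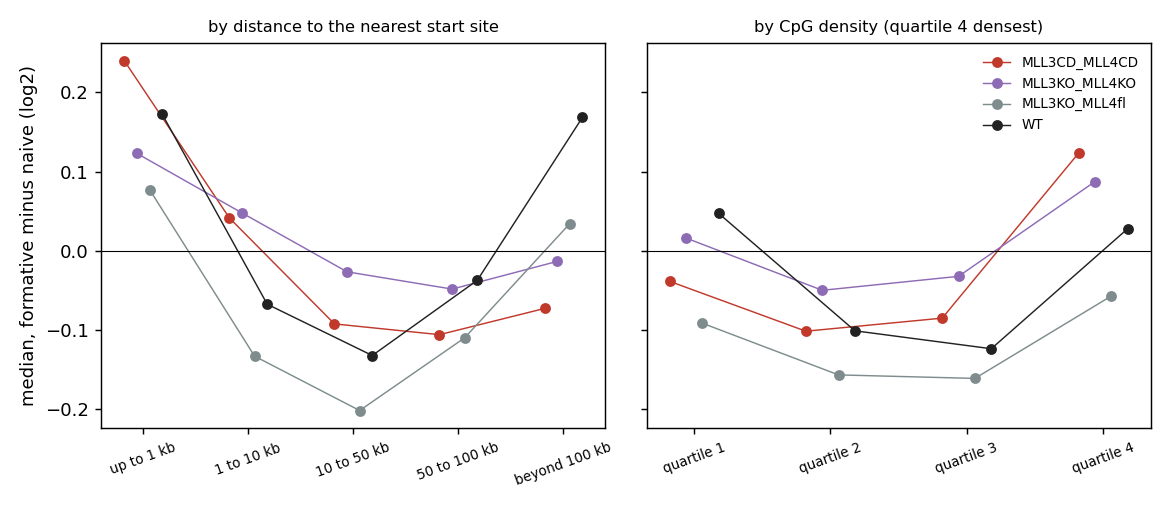
Median formative minus naive H3K4me1 difference (log2, y axis) by distance to the nearest start site (left) and by quartile of CpG density (right), for 4 genotypes. MLL3CD_MLL4CD is the highest line within 1 kb (0.24) and in the densest quartile (0.12), and at −0.07 lies below WT (0.17) beyond 100 kb.

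The 325 regions whose gain was kept had a median of 0.73 CpG per 100 bp and 24.7 reads, and 29.2% lay beyond 100 kb from a start site, 2.77% within 1 kb and 4.62% on X. Over all regions the values were 1.25 CpG, 51.5 reads, 12.6%, 7.39% and 0.87%. The 8678 gained regions that stayed within 0.5 had 0.99 CpG per 100 bp and 40.7 reads, with 24.6% beyond 100 kb. The 324 gained regions that were lower by 0.5 or more had 0.90 CpG per 100 bp and 26.2 reads, with 38.3% beyond 100 kb and 1.23% within 1 kb. Low CpG density, low coverage and distance from a start site were thus not particular to the kept gains. The share on X was 1.54% at these 324 regions and 0.91% at the gained regions that stayed within 0.5, below that of the kept gains. The kept gains had larger differences in wild type (median 1.58, against 1.10 in the regions that stayed within 0.5), and low coverage moves with them. Its part in the result was not tested. The 647 kept losses had 1.11 CpG per 100 bp and 43.9 reads, against 1.16 and 54.8 at the lost regions that stayed within 0.5. Introns held 53.5% of the kept losses, 58.9% of the lost regions within 0.5 and 48.7% of all regions. The wild-type median was −1.33 at kept losses, against −1.04 at the lost regions that stayed within 0.5.

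Readouts of other libraries were then set beside the kept regions. In the authors' deposited table, the median log2 fold of H3K27ac in wild type, formative over naive, was 1.62 at the 325 kept gains, 1.27 at the partly kept and 1.18 at those within 0.5. At the kept losses it was −1.04, at the partly kept −0.48 and at those within 0.5 −0.25. The regions that went the other way in the catalytic-dead line did not extend this order, since the authors' deposited table gave 1.41 at the 324 gained ones and −0.41 at the 123 lost ones. In double knockout cells the authors' deposited table gave 0.64 at kept gains and −0.83 at kept losses, against 0.43 and −0.15 at those within 0.5. For RNA of the nearest gene in wild type, which the authors' deposited table lists for 128 of the 325 kept gains and 328 of the 647 kept losses, the medians were 1.45 and −0.31. By the authors' deposited table they were 0.83 at gained and −0.12 at lost regions within 0.5, and 0.15 over all regions. These columns come from wild-type and double knockout cells outside the series, and no such column of the catalytic-dead line was used.

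The 10 largest gains lay at thinly covered intergenic and intronic sites. A region 993 kb from Brinp3, a neural gene induced by BMP and retinoic acid (chr1:147489507-147491624), had 17.7 reads in formative and 2.43 in naive catalytic-dead cells, a difference of 2.48, against 0.60 in wild type. The region near Zfp960, a zinc finger gene (chr17:16817665-16818991), had 17.6 and 3.20 reads (2.34, against 1.58 in wild type and 1.36 in the double knockout). Others of the 10 lay near Gm12070 (2.10), the latrophilin gene Adgrl3 (1.99), the protocadherin gene Pcdh9 (1.98), Pigm, which adds mannose to GPI anchors (1.89), Glipr2 (1.82), Marcks, an actin-binding substrate of protein kinase C (1.75), and the contactin gene Cntn6 (1.75). All of these had fewer than 10 reads in naive catalytic-dead cells. The Pantr1 intron shown above (chr1:42691173-42693050), in a noncoding gene beside Pou3f3, had 50.1 reads in formative and 13.7 in naive cells (1.82), and was the gain with the most reads. In wild type it differed by 2.44, with an FDR of 4.58e-07 in the authors' deposited table. Of the 10 regions, those near Zfp960, Adgrl3, Pantr1 and Marcks were gained in wild type at an FDR under 0.05, and those near Gm12070, Pcdh9 and Cntn6 were stable there.

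The 10 largest losses had 18.9 to 173.9 reads in naive cells, their higher state. The 10 gains had 15.4 to 50.1 in formative cells, theirs, so the ranges overlapped. An exonic region 12.0 kb from Rnd3 (chr2:51136096-51138213), had 10.9 reads in formative and 65.2 in naive catalytic-dead cells, a difference of −2.48, against −1.02 in wild type and 0.21 in the double knockout. An intron at Slc38a4, an amino acid transporter gene (chr15:97036227-97039003), had 12.9 and 64.1 reads (−2.18, against −1.32 in wild type and 0.06 in the double knockout). The region near St8sia1, which makes the ganglioside GD3 (chr6:142977498-142979156), had 11.4 and 50.0 reads (−2.08), and differed by −1.24 in the double knockout and −1.13 in wild type. The Gm13570 intron (chr2:60045557-60049737) had the most reads of the 10, 41.7 in formative and 173.9 in naive cells (−1.97, with −1.35 in the double knockout and −1.44 in wild type). The others lay near B930018H19Rik (−2.30), the DOPA decarboxylase gene Ddc (−2.10), the phosphatase subunit gene Ppp4r2 (−2.07), the splicing factor gene Rbfox1 (−2.07), Spaca7 (−1.92) and Hspbap1 (−1.91). Of the 10, 7 were lost in wild type at an FDR under 0.05, those near Ddc and Ppp4r2 were lower there without passing it, and the one near B930018H19Rik was stable. The B930018H19Rik region had 3.52 reads in formative and 18.9 in naive cells.

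**Figure D4:**
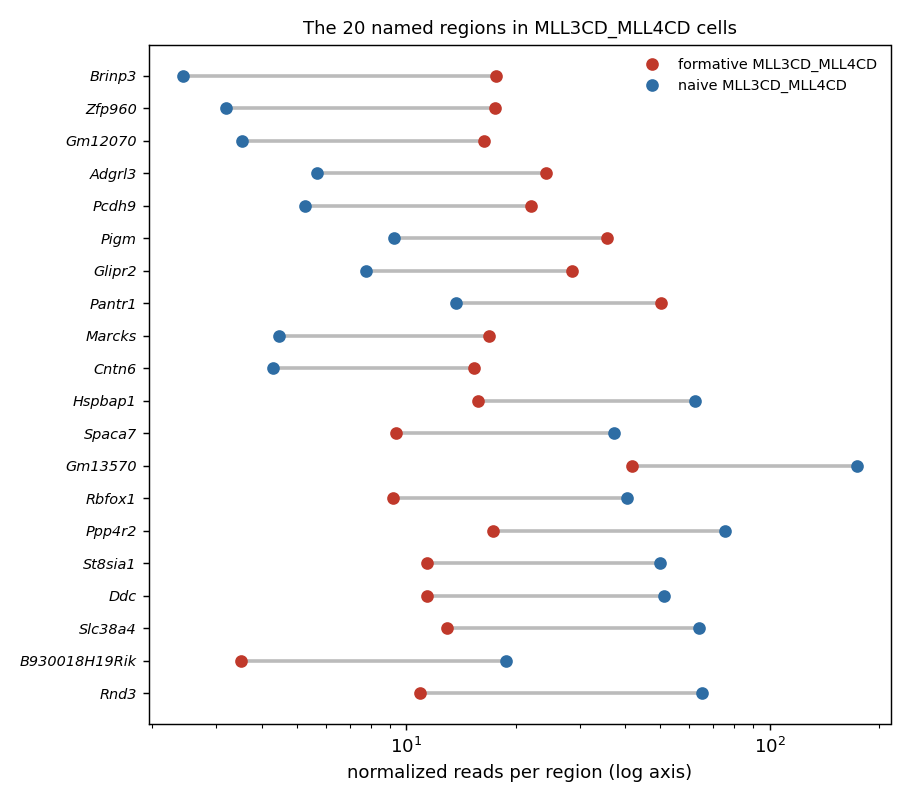
Normalized reads per region (log axis) in formative and naive MLL3CD_MLL4CD cells for the 10 regions with the largest gains and the 10 with the largest losses, named by nearest gene. Naive values of the gains lie between 2.43 and 13.7 reads. In the higher state, the gains lie between 15.4 and 50.1 reads (formative) and the losses between 18.9 and 173.9 (naive, highest at Gm13570).

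Averaging over regions within 50 kb of a nearest gene gave 19735 loci, of which 11670 had at least 3 regions. In the catalytic-dead line 538 loci were at least 1.5-fold higher in formative cells (2.73%) and 379 lower (1.92%), against 232 (1.18%) and 124 (0.628%) in the double knockout, 1669 (8.46%) and 3160 (16%) in the floxed line and 2219 (11.2%) and 2669 (13.5%) in wild type. Among loci of at least 3 regions, 82 were higher (0.703%) and 130 lower (1.11%). The nearest gene need not be the target of a region.

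The highest loci with at least 3 regions were led by X-linked genes. Frmd7, a FERM domain gene, averaged 1.07 over 3 regions (0.87 to 1.35), with means of 24.0 reads per region in formative and 10.5 in naive catalytic-dead cells. Mid1, a ubiquitin ligase gene (0.98), and Shroom4, which shapes the actin cytoskeleton (0.91), also lie on X. The locus of Pax6, the eye and forebrain homeobox gene, had far more reads, 281.6 in formative and 171.7 in naive cells. Its 3 regions differed by 0.49 to 0.98 (mean 0.79, against −0.03 in the double knockout and 0.93 in wild type). Prdm8, a zinc finger regulator of neurons, had 231.0 reads in formative and 132.3 in naive cells (0.78, against 0.35 in the double knockout and 0.94 in wild type). Gmnc, which starts the multiciliated cell programme (0.83), the kynureninase gene Kynu (0.82), Has2os, named as antisense to a hyaluronan synthase gene (0.81) and Plxdc2 (0.78) were also among the highest. Every region of the loci named here was higher in formative catalytic-dead cells.

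The lowest loci were a mixed group. The noncoding locus 9030624G23Rik averaged −1.17 over 4 regions, with 17.9 reads per region in formative and 42.7 in naive catalytic-dead cells, against 0.03 in the double knockout and −2.01 in wild type. Clock, the circadian transcription factor gene, averaged −0.90 over 5 regions, all lower, with 41.7 and 85.1 reads, against −0.26 in the double knockout and −0.97 in wild type. Ddc averaged −0.89 over 11 regions, from −2.10 to −0.39, against −0.54 in the double knockout and −0.37 in wild type. The replication factor C gene Rfc5 had −0.89 over 3 regions, against −0.34 in the double knockout and in wild type and −0.50 in the floxed line. Nsmce3, a subunit of the SMC5/6 complex, had −0.86 over 10 regions. The others were 2310022A10Rik (−0.97), D130040H23Rik (−0.92), 1700007P06Rik (−0.87), 9430083A17Rik (−0.87) and AY512931 (−0.86). No region of the 10 loci was higher in formative cells.

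Naive pluripotency loci were lower in formative catalytic-dead cells. Of 22 loci, 4 were at least 1.5-fold lower and none higher, against 1.92% and 2.73% of all loci, and 18 had negative values. The list median was −0.35, against −0.22 in the double knockout and −0.43 in wild type, where 8 were lower. All loci together had medians of 0.02, 0.03 and −0.06 in these lines. Zfp42, also known as Rex1, was the lowest, at −0.85 over 18 regions, none of them higher, with 30.3 reads per region in formative and 57.6 in naive catalytic-dead cells. Mras, a Ras-family GTPase gene, had 194.4 reads in formative and 365.0 in naive cells (−0.79). The AKT coactivator gene Tcl1 had −0.70, and Tfcp2l1, a transcription factor of the naive network, −0.62 against −0.53 in the double knockout and −1.21 in wild type. Klf4, Klf2 and Klf5, naive Krüppel-like factors, had −0.40, −0.36 and −0.35. The germ line regulator gene Prdm14 had −0.21, against −0.89 in wild type. Esrrb (0.08) and Nanog (−0.07) differed little, as in wild type (0.01 and −0.06). Of the 194 regions behind these loci, the 10 within 1 kb of a start site had a median of 0.15 in the catalytic-dead line, and the distal ones −0.36.

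Formative and primed loci were higher. Of 23, 4 were at least 1.5-fold higher and none lower, against 2.73% and 1.92% of all loci, and 20 had positive values. The median was 0.29, equal to that of the double knockout (0.29) and below that of wild type (0.53), where 10 were higher. Fgf5 averaged 0.75 over 6 regions (0.51 to 1.03), with 106.7 reads per region in formative and 63.6 in naive catalytic-dead cells, against 0.29 in the double knockout and 1.58 in wild type. Lin28b, which blocks let-7 maturation, had 0.72 over 7 regions, the zinc finger gene Sall2 0.71 over 6 and the SOXC gene Sox11 0.70 over 7, all regions higher. In the double knockout they had 0.34, 0.29 and 0.40, and in wild type 1.09, 0.93 and 1.15. Pim2, a kinase gene on X, came close (0.58), below its value in the double knockout (0.73). The POU factor gene Pou3f1 had 0.49, against 0.97 in wild type, and Grhl2, which opens epithelial enhancers, 0.29 against 0.61. Fgf15 had −0.06 in the catalytic-dead line, against 0.51 in wild type. The 10 loci past 1.5-fold in wild type had a median of 0.53 in the catalytic-dead line, and 4 of them passed there. At Otx2 (0.05) and Dnmt3b (0.08) the line differed little, as did wild type (0.08 and −0.12). The size was not smaller than in wild type at every marker. Zic5 had 0.43 against 0.10 in wild type, Utf1 0.42 against 0.33 and Etv4 0.45 against 0.41. Among the naive loci Tbx3 had −0.40 against 0.20, Dppa5a −0.50 against 0.21 and Zfp57 −0.52 against −0.37, Dppa5a and Zfp57 each from a single region.

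Neural fate loci had the highest list median in the catalytic-dead line, 0.33, against 0.13 in the double knockout and 0.36 in wild type. Without the Conc limit the formative and primed list had the higher median of the 2 lists, 0.38 against 0.35. Of 15, 4 were at least 1.5-fold higher and none lower, against 2.73% and 1.92% of all loci. Positive values were found at 14, while the median of all loci was 0.02. Besides Pax6, Zic1, a zinc finger gene of the neural plate, had 177.5 reads in formative and 105.5 in naive catalytic-dead cells (0.68, against 0.36 in the double knockout and 0.79 in wild type). Six3, a forebrain homeobox gene, had 109.2 and 65.6 reads (0.63, against 0.02 and 0.77). The POU gene Pou3f2 had 0.59 over 2 regions, against 0.17 and 0.26. Paired-box gene Pax3 went less far, with 0.25 against 1.10 in wild type. The proneural gene Neurog2 had 0.56, against 0.13 in wild type. Promoter regions, which as a class were higher in the line, make up 3 of the 84 regions behind these loci, and the regions farther than 1 kb from a start site had a median of 0.37, against 0.50 in wild type.

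Primitive streak and mesoderm loci had a median of 0.13, against 0.06 in the double knockout and 0.47 in wild type. Of 15, 2 were at least 1.5-fold higher, against 2.73% of all loci. Each rests on a single region, namely the LIM homeobox gene Lhx1 (0.66) and the forkhead gene Foxf1 (0.63). Eomes and Mixl1, T-box and homeobox genes of the streak, had 0.03 and −0.05, against 0.51 and 0.62 in wild type, and T (Brachyury) had 0.33 against 0.47. Of 13 endoderm loci none passed, with a median of 0.07 against 0.24 in wild type, where 4 were higher and 2 lower. Cer1, a secreted antagonist of Nodal and BMP, had −0.30 over 4 regions against 0.74 in wild type, Afp, the alpha-fetoprotein gene, −0.11 against 1.03, and the adaptor gene Dab2 0.18 against 1.17. Other members had values closer to those of wild type, namely the GATA factor genes Gata4 (0.38, against 0.24) and Gata6 (0.24, against 0.24), the receptor gene Pdgfra (0.47, against 0.60) and Sox17 (0.16, against 0.22). None of 12 trophoblast loci passed (median 0.04), with the caudal gene Cdx2 at 0.54 from a single region. None of 10 fibroblast loci passed, which would mark feeder cells (median 0.13), and the collagen gene Col1a2 and the decorin gene Dcn stood at −0.02 and −0.03, against 0.83 and 1.13 in wild type. Other members had larger values without passing, namely Prrx1 (0.40), Twist1 (0.37), the surface protein gene Thy1 (0.31) and the vimentin gene Vim (0.31), and the list median was 0.31 with a window of 20 kb. None of 12 core pluripotency loci passed (median 0.08), with Pou5f1, the OCT4 gene, at 0.21 and Sox2 at 0.15.

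**Figure D5:**
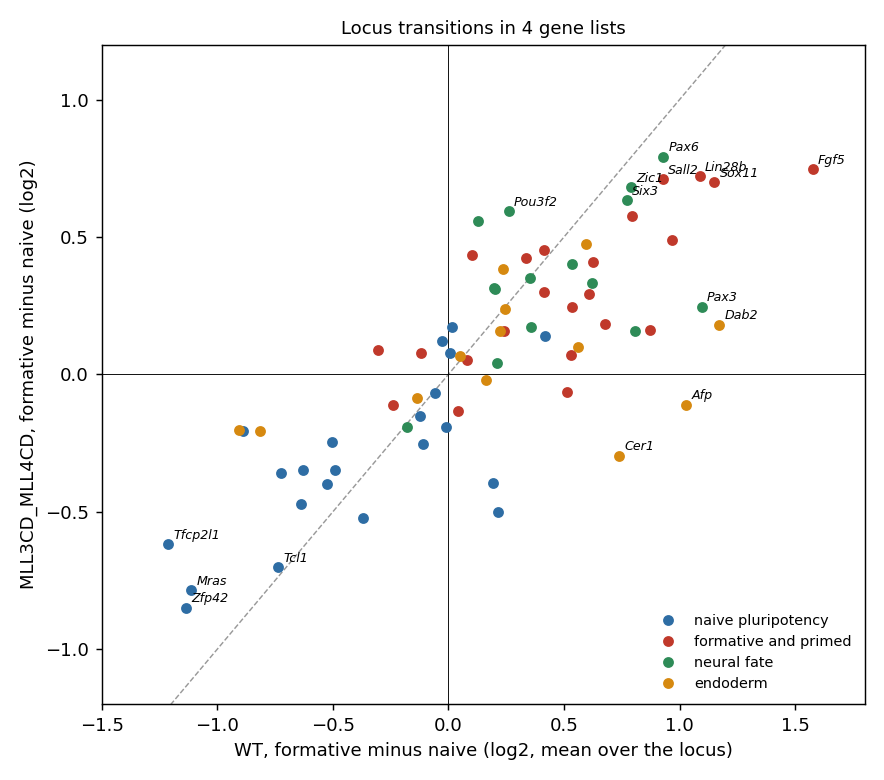
Formative minus naive H3K4me1 difference averaged per locus (log2) in MLL3CD_MLL4CD (y axis) and WT (x axis) for loci of 4 gene lists, 1 point per locus, with the dashed line at equal values. Neural points such as Pax6 (0.79) and Zic1 (0.68) lie near the dashed line, Fgf5 (0.75, against 1.58) lies well below it, and Cer1 (−0.30, against 0.74) has opposite signs.

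Of the remaining lists, few loci passed. Over all loci, 2.73% were at least 1.5-fold higher and 1.92% lower. Among 20 target genes of WNT, FGF and TGF-beta signals 1 did, the caudal gene Cdx1, a WNT target, whose single region differed by −1.56 in the catalytic-dead line as in wild type (−1.56), against −0.43 in the double knockout. It had 24.8 reads in formative and 74.4 in naive catalytic-dead cells. Other members were mostly positive without passing, such as Spry4, an FGF antagonist gene (0.49), and Id3, a BMP target (0.46), with a list median of 0.20. In the DNA methylation list, 1 of 9 passed, Tet2, an enzyme that oxidises 5-methylcytosine, at −0.65 over 10 regions, all lower (−0.24 in the double knockout and −0.78 in wild type). In the germ line list, 1 of 8 passed, Dazl, an RNA-binding protein of germ cells (−0.89, a single region). None of 16 loci of H3K4 methylation passed (median −0.19, against −0.45 in wild type, where 6 were lower). Kmt2c itself had −0.53 and Kmt2d −0.33. None passed of 12 loci of the cadherin switch (median 0.09), of 11 of glycolysis and respiration (−0.11) or of 12 housekeeping loci (−0.07). With a window of 20 kb no list median changed sign. Without the Conc limit the endoderm median was −0.07 in place of 0.07, after centring the germ line median was 0.00068 in place of −0.06, and the other list medians kept their sign under both.

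RNA of wild type was set beside the loci of the catalytic-dead line. In the authors' deposited table, RNA was listed for 181 of the 538 higher and 135 of the 379 lower loci. The median log2 fold, formative over naive wild type, was 0.94 at higher loci, 0.15 at the 9917 loci within 1.5-fold and −0.49 at lower loci. RNA of wild type was at least 2-fold higher at 45.9% of the higher loci, against 18.4% of those within 1.5-fold and 6.67% of the lower ones. In double knockout cells, the medians of the authors' deposited table were 0.80, 0.21 and −0.17. Across 6940 loci of at least 3 regions, the difference in the catalytic-dead line and the wild-type RNA fold correlated at r = 0.36 and rho = 0.33, against r = 0.47 for the wild-type H3K4me1 difference. Loci share neighbouring regions and are not independent.

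Where the line departed from wild type was read from the difference of transitions, catalytic-dead line minus wild type. It was at least 1, that is 2-fold, at 5785 regions (5.21%) and at most −1 at 7408 (6.67%). The lowest of these were wild-type gains that were missing. An intron at Thrb, the thyroid hormone receptor beta gene (chr14:17733078-17734777), had 6.60 reads in formative and 13.4 in naive catalytic-dead cells (−0.96), against 58.9 and 6.23 in wild type (3.13). The region near Gpr149, an orphan receptor gene (chr3:62799382-62801594), had 16.4 and 11.7 reads (0.45), against 80.0 and 4.33 (3.93). The others were C330011F03Rik (−0.45, against 3.47), Gm10415 (0.06, against 3.97), the formin gene Fmn1 (−0.62, against 2.81) and Mir99ahg (0.17, against 3.59).

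The highest were wild-type losses that were missing. An intron at Sptlc1, which encodes a subunit of serine palmitoyltransferase (chr13:53363910-53365798), had 25.8 reads in formative and 18.2 in naive catalytic-dead cells (0.48), against 7.82 and 80.1 in wild type (−3.24). An intron at Catsperg2 (chr7:29708052-29710185) had 22.1 and 19.3 reads (0.19), against 5.22 and 61.8 (−3.35). The others lay near the microRNA gene Mir181a-1 (0.99, against −2.12 in wild type), Eml6, a gene of the EMAP family of microtubule-binding proteins (1.35, against −2.27), the fatty acid synthase gene Fasn (1.07, against −1.92) and 2810404M03Rik (−0.26, against −3.21). The Eml6 and Fasn regions were thus past 2-fold in opposite directions in the 2 lines. Except near Mir181a-1 (47.5 in formative cells), none of these 12 regions had more than 29.7 reads in either state of the catalytic-dead line.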

How the data were processed

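CUT&RUN libraries of H3K4me1 were read from the only processed table, which lists 186826 regions on mm10. Per the submitters' processing notes, Trim Galore, Bowtie2, SEACR, DiffBind and deepTools were used, with versions and steps not given in the sources used here. Per the file headers, the deposited H3K4me1 levels, Conc and folds are on a log2 scale, 1 column holds both libraries of a group, and the table gives the authors' p-value and FDR for wild type. The deposited width and distance are in bp. For the H3K4me1 antibody, the protocol and the characteristics in the labels disagree on the catalogue number, and that of the protocol belongs to an antibody sold against H3K27ac. The mark is named as labelled.

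In wild type the levels followed log2 of 1 plus a constant (offset 22.2) times normalized reads over squared region width, with slopes of −2.00. They were inverted to normalized reads, and compared only within a region. Recomputed differences of the catalytic-dead line matched the deposited column to 6.3e-06. Levels were missing for 2 regions, 271 had a date as gene name and count as unnamed, and 14 columns of other levels were not used. Depth per library is unknown, so no interval is given.

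Members and gene lists (15 lists, 208 genes) were chosen with earlier results of these data known. Named were the 10 largest and 10 smallest regions, 1 per gene, the 6 largest and 6 smallest differences from wild type, the 10 highest and lowest loci of at least 3 regions, and list members. Of these, 1 locus is not reported here. Loci were means over regions within 50 kb, counted at 1.5-fold, and regions were counted at 2-fold. CpG and GC came from the GRCm38 sequence. Scripts used Python 3.11.15, pandas 2.3.3 and NumPy 2.4.6, and were tested on simulated data. The simulation held only regions with more than 32 reads in naive catalytic-dead cells, so it does not bear on regions with fewer. A count test planned for per-library values could not be run on pooled columns. Alternatives were centring, quantile scaling, other Conc limits, an added constant of 1, autosomes only and an FDR of 0.01.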

Additional observations from a re-analysis of the deposited data

Results flagged for a closer look

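In 3 results among the named members, the catalytic-dead line and wild type moved past the size limit in opposite directions. The limit was 2-fold for regions and 1.5-fold for loci. Among all 111035 regions, 9 were 2-fold higher in the catalytic-dead line and 2-fold lower in wild type, and 14 the reverse. These differences were not tested, since each group is a single pooled value.

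The Eml6 intron (chr11:29931537-29934138) was higher by 1.35 in formative than in naive catalytic-dead cells, with 29.7 and 10.8 reads, while in wild type it differed by −2.27, with 15.1 and 77.9 reads. The difference of the transitions was 3.62. The floxed line (−1.47) had the sign of wild type and the double knockout (0.61) that of the catalytic-dead line.

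The Fasn region, an intron by the authors' annotation (chr11:120864933-120867077), was higher by 1.07 in the catalytic-dead line, with 23.7 and 10.8 reads, against −1.92 in wild type, with 15.95 and 62.99 reads. The difference of the transitions was 2.99. The floxed line had −2.16 and the double knockout −0.44.

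The Dazl locus rests on a single region, which had 17.5 reads in formative and 33.04 in naive catalytic-dead cells (−0.89), against 1.55 in wild type, a difference of −2.44. The floxed line had 1.30 and the double knockout −0.56. In the authors' deposited table, RNA of Dazl in wild type had a log2 fold of −1.12 and H3K27ac one of 3.56.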

How the results depend on the processing

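No paired analysis was possible because the table holds 1 pooled column per group, and for the same reason no library could be left out. In the catalytic-dead line, the counts of regions 2-fold higher and lower (580 and 1529) became 2556 and 4611 over all regions, 109 and 420 at a Conc of at least 6, and 5875 and 10093 at 1.5-fold. The median in wild-type-gained regions (0.27) was 0.33 after centring or quantile scaling, 0.28 at a Conc of at least 6 and 0.29 at an FDR under 0.01. In wild-type-lost regions (−0.33) it was −0.26 after centring or quantile scaling, −0.31 at a Conc of at least 6, −0.34 on reads plus 1 and −0.36 at an FDR under 0.01. In stable regions (0.01) it was 0.074 after centring, 0.062 after quantile scaling, −0.0029 over all regions and 0.024 at a Conc of at least 6. Gains kept at 2-fold (2.70%) were 3.72% after centring, 3.55% after quantile scaling, 5.01% over all regions, 1.08% at a Conc of at least 6 and 3.32% at an FDR under 0.01. Losses kept (4.32%) were 3.17%, 3.09%, 5.92% and 2.64% under the same 4 settings, 4.77% on reads plus 1 and 4.91% at an FDR under 0.01. Regions that differed 2-fold from wild type in their transition (5785 higher, 7408 lower) were 14923 and 20446 over all regions. The other 21 alternatives for these results gave no change of direction or size class. Of 45 for list medians, 2 changed sign near 0, endoderm (−0.07 over all regions) and germ line (0.00068 after centring). The cause of these shifts was not tested. The added 1 in the level shrinks differences in wide regions, and regions with few reads limit what a 2-fold count can show.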

Other observations

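Short motifs were counted on both strands in the central 300 bp of each region, as a description of letters and not of binding. The KLF motif GGTGTGG was present in 10.5% of the 647 kept losses and 3.08% of the 325 kept gains, against 7.94% of all regions. The ESRRB motif AAGGTCA was present in 6.96% of kept losses and 3.38% of kept gains, against 6.65% of all regions. The KLF share was 9.62% in lost regions that stayed within 0.5 and 5.78% in gained regions that stayed within 0.5, and the ESRRB share there was 8.46% and 5.46%. The GRHL motif ACCNGTT was present in 12.6% of kept gains and 9.74% of kept losses, against 8.19% of all regions, and in 8.54% of the gained regions that stayed within 0.5. The SOX motif ATTGTT was present in 17.5% of kept gains and 16.7% of kept losses, against 14.1% of all regions. Its share was 16.6% in gained and 13.8% in lost regions that stayed within 0.5. In the 324 gained regions that were lower by 0.5 or more, the shares were 18.5% for SOX, 3.09% for KLF, 5.56% for ESRRB and 8.02% for GRHL. The SOX and KLF shares of kept gains were thus not particular to them. GC content differed between these classes, with medians of 43.0% in kept gains and 45.3% in kept losses, and moves with the motif shares. Its part in them was not tested.

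Regions that were stable in wild type and at least 2-fold different in the catalytic-dead line numbered 97 higher (0.17% of the stable regions) and 459 lower (0.82%). The double knockout had 117 (0.21%) and 135 (0.24%). With at least 64 reads, the catalytic-dead line had 9 higher and 52 lower of 25771 stable regions.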
